A study of Mus musculus with 22 samples.

Results

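Cytosolic ribosomal protein genes were followed in calf muscle (gastrocnemius) of 22 mice made ischemic, of which 11 received ANTI-210 and 11 SCR. Of 18524 genes read by the arrays, 64 were taken by name: symbols that start with Rpl or Rps and a digit, together with Rplp0, Rplp1, Rplp2 and Rpsa, leaving out 6 genes of the Rps6k kinase family. They comprise 33 genes of the large (60S) subunit, 22 of the small (40S) subunit and 6 paralogs (Rpl3l, Rpl22l1, Rpl36al, Rpl39l, Rps27l and Rps4l). The other 3 are genes of similar name (Rpl7l1, Rps19bp1 and Rps23rg1). All 22 animals were non-diabetic male C57BL/6N mice 8 to 12 weeks old with hindlimb ischemia made by femoral artery removal, so the comparison holds no uninjured muscle. On day 5 of ischemia the ANTI-210 mice were injected with 12 mg/kg of an LNA oligonucleotide against miR-210 and the SCR mice with a scrambled one, and on day 7 the muscles were taken. RNA of each mouse was hybridized to its own array, on Illumina MouseWG-6 v2 BeadChips, and each value is a log2 intensity after quantile normalization by the authors.

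The cytosolic ribosome translates nuclear messages into protein. Its subunits are built in the nucleolus from ribosomal RNA and ribosomal proteins, each protein normally present in a single copy per ribosome, and the genes are known for being expressed together and for messages that begin with a pyrimidine tract (the TOP element), through which the mTORC1 kinase controls their translation. In striated muscle a part of Rpl3, which lies near the peptidyl transferase centre, is replaced by its paralog Rpl3l, which is expressed almost only in skeletal muscle and heart. In muscle that is stimulated to grow, Rpl3l is known to fall and Rpl3 to rise.

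The microRNA that the treatment was directed against has the mature sequence below, from RefSeq, encoded on the minus strand at chr7:141221407-141221428 of GRCm38.p6, with the seed (bases 2 to 8) in capitals. It is shown because it defines the 2 groups. Matches to this seed in the messages of the members were not searched here.
mmu-miR-210-3p: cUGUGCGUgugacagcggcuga

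The starts of the members that moved most closely together are shown next, beside that of Rpl3l, which moved the other way, as described further on. Each stretch runs from 60 bases before to 15 bases after the start that RefSeq gives on GRCm38.p6, 5′ to 3′ on the strand of the gene. Capitals mark 4 motifs searched on both strands: CTTTC, a core of the pyrimidine tract, CCGGAAG, a binding sequence of ETS factors, TCTCGCGA, a palindromic element known from housekeeping promoters, and TATAAA, the TATA box. Where TCTCGCGA overlaps its own reverse complement the capitals run on.
Rps19 (chr7:24884532-24884606, plus strand): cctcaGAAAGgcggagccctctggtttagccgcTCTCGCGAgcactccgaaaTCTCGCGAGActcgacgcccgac
Rpl13a (chr7:45128731-45128805, minus strand): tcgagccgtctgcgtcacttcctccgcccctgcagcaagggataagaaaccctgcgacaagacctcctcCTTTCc
Rpl19 (chr11:98026650-98026724, plus strand): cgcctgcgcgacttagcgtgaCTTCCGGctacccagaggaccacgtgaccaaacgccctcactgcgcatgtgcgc
Rps16 (chr7:28350629-28350703, plus strand): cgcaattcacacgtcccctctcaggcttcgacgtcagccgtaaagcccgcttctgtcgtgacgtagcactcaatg
Rpl3l (chr17:24727766-24727840, plus strand): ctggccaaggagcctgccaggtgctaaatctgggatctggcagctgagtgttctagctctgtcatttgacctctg

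RefSeq start regions were found for 53 of the 64 members, and Rpl3 is among the 11 without one. Counting any listed start of a gene, 43.4% of these members held CCGGAAG within 250 bases before to 50 bases after the start, against 9.93% of all 27025 genes with such a region. TCTCGCGA was held by 17% of the members and 1.13% of all genes, and TATAAA by 11.3% and 15.7%. CTTTC, on either strand, within 25 bases on each side of a start was held by 34% of the members and 14.4% of all genes. Whether these matches are pyrimidine tracts of the message was not tested. Of the 4 motifs the Rpl3l region held CTTTC near a listed start, outside the stretch printed above, and Rps16 held none in the printed stretch. These are matches of letters and were described with no test.

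The probes of the members sat mostly at the bright end of the array. Of the 64 genes, each at its brightest probe, 19 had a mean of at least 14 on the log2 scale, which 0.467% of all probes reached. All probes include dimmer ones of the same gene, so this share is not fully comparable. A mean under 6 lies close to the lower end of the scale, where values respond weakly to RNA. It was found in 8 members, in 9696 of all 18524 genes taken in the same way, and in 62.6% of all probes. The 8 dim ones were Rpl6, Rpl14, Rpl17, Rps20, Rps23, Rpsa, Rpl39l and Rps23rg1, of which 6 are genes of the subunits themselves. In the 49 genes of both subunits above 6, the spread went with brightness. The 18 with a mean of at least 14 had a median SD over the 22 mice of 0.13, and the other 31 had one of 0.25. For 22 members several probes were present, 94 in all, and the brightest stood for the gene. Rpl31, of the large subunit, had an SD of 0.20 at its probe of mean 13.66 and SDs of 0.56 and 0.60 at its dimmer probes of means 9.60 and 9.47. Of 18 such dimmer probes with a mean of at least 6, 15 had a larger SD than the brightest probe of their gene. Those of Rpl29 (0.13 against 0.28), Rpl30 (0.18 against 0.25) and Rps9 (0.30 against 0.31) had a smaller one. Ribosomal protein genes also have many processed pseudogenes, and whether a probe binds their transcripts was not tested.

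The first question was whether blocking miR-210 changed the level of these messages. It did not do so detectably. Among the 64 members 1 passed the study's threshold, an unadjusted p under 0.05, and it was lower with ANTI-210, whereas 3.24% of all genes passed. None passed after Benjamini-Hochberg adjustment with limma, as 0.0162% of all genes did. The differences, ANTI-210 minus SCR, ran from -0.20 to 0.17 on the log2 scale, 41 above 0 and 23 below, with a median of 0.01 beside -0.0036 over all genes. The 2 groups overlapped in each member, and in how many of all genes they overlap was not counted. The median standard error was 0.09 and the median half-width of the 95% interval was 0.18, so smaller shifts of a single gene were not detectable at this number of arrays. In whole muscle, fewer cells of a type and less RNA per cell cannot be told apart.

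**Figure D1:**
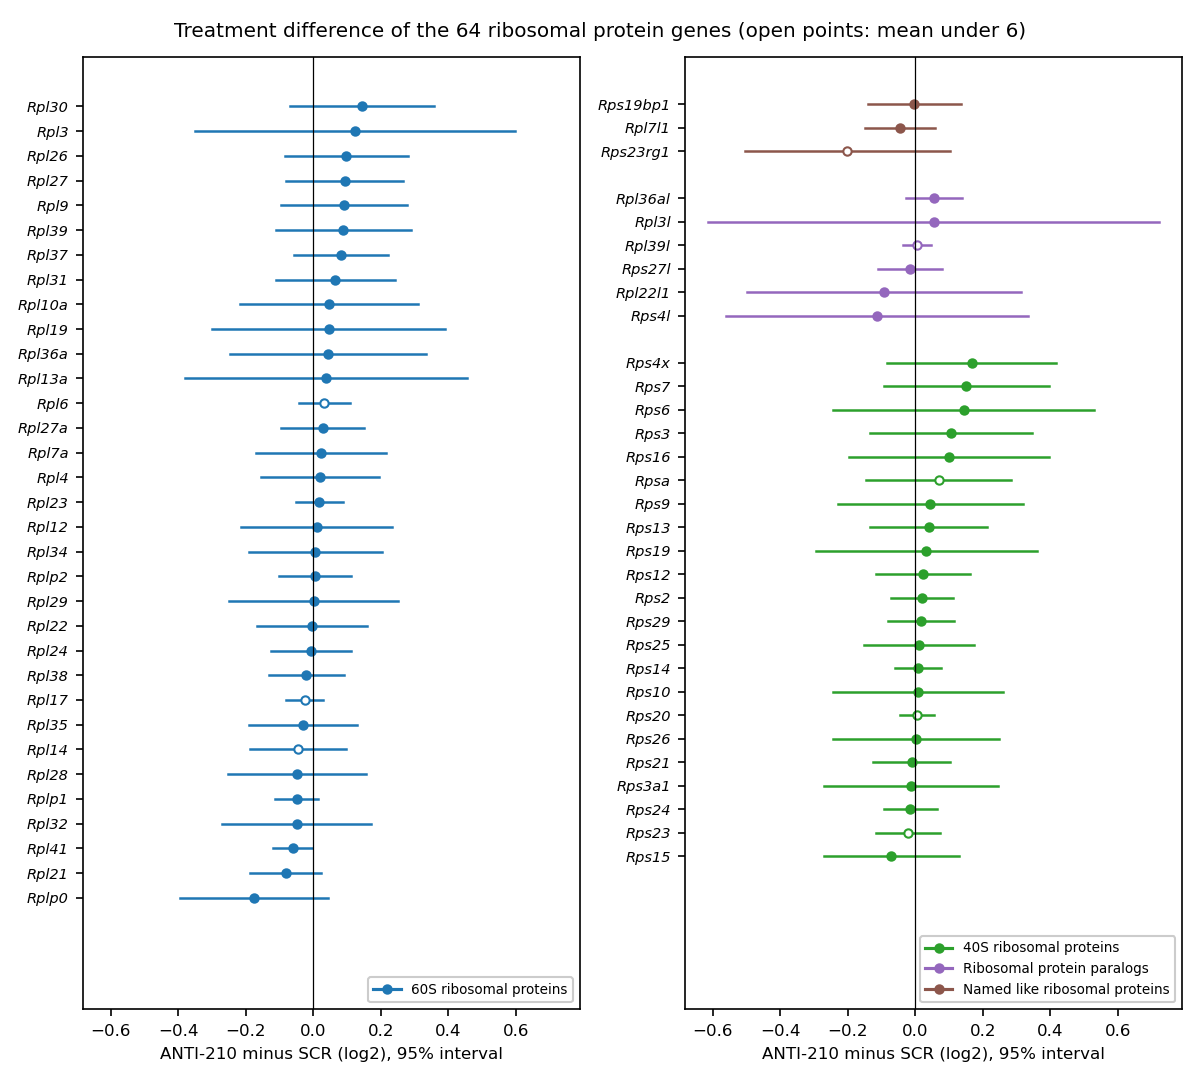
Difference between ANTI-210 and SCR (log2, horizontal axis) of each of the 64 ribosomal protein genes, with its 95% interval from limma, n = 11 mice per group; large subunit left, small subunit, paralogs and genes of similar name right, open points for means under 6. All points lie between -0.20 and 0.17, and the interval of Rpl41 is the one that leaves out 0.

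Rpl41, which encodes a very short basic peptide of the large subunit, was the member that passed. Its log2 intensity ran from 15.05 over a median of 15.13 to 15.26 in SCR muscles and from 14.95 over a median of 15.11 to 15.13 in ANTI-210 muscles. The groups overlapped between 15.05 and 15.13, and ANTI-210 replicates 1 and 3 were the lowest of all mice. The difference was -0.06 (SE 0.03, unadjusted p = 0.0407 and adjusted p = 0.999 by limma). Rpl41 did not pass when any one of SCR replicates 2, 3, 6 and 8 or ANTI-210 replicates 1, 3, 4 and 5 was left out. Counting all 94 probes of the members in a fit over all probes, 4 were past the threshold, all 4 lower, beside 3.41% of all probes. Besides Rpl41 they were dimmer probes of Rpl27a (difference -0.20 at a mean of 5.00), Rpl29 (-0.12 at 10.47) and Rps2 (-0.12 at 14.19). The brightest probes of these 3 genes gave 0.03, 0.00091 and 0.02, so the probes of a gene disagreed.

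The members with the largest positive differences came from both subunits, and none of them passed the test. In the small subunit they were Rps4x at 0.17 (SE 0.12), Rps7 at 0.15 (SE 0.12), Rps6, the substrate of the S6 kinases, at 0.14 (SE 0.19), Rps3, which lies at the message entry channel, at 0.10 (SE 0.12) and Rps16 at 0.10 (SE 0.14). In the large subunit they were Rpl30 at 0.14 (SE 0.10), Rpl3 at 0.12 (SE 0.23), Rpl26 at 0.10 (SE 0.09), Rpl27 at 0.09 (SE 0.08) and Rpl9 at 0.09 (SE 0.09). Rps4x, the highest of them, ran from 13.60 over a median of 13.86 to 14.41 in SCR muscles and from 13.70 over a median of 14.07 to 14.82 in ANTI-210 muscles.

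On the negative side Rps23rg1, a gene of similar name with a mean of 5.58, stood first at -0.20 (SE 0.15). Rplp0, the scaffold of the ribosomal stalk, followed at -0.17 (SE 0.11). The paralogs Rps4l and Rpl22l1 had -0.11 (SE 0.22) and -0.09 (SE 0.19), and Rpl21, Rps15, Rpl32, Rplp1 and Rpl28 lay between -0.08 and -0.05, none of them past the test. The 2 other stalk proteins, Rplp1 and Rplp2, had differences of -0.05 and 0.01.

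Rpl3l and its counterpart Rpl3 were likewise not different between the treatments at this precision. Rpl3l ran from 12.48 over a median of 14.76 to 14.87 in SCR muscles and from 12.61 over a median of 14.53 to 14.93 in ANTI-210 muscles. The difference was 0.05 (SE 0.32, 95% interval -0.61 to 0.72, unadjusted p = 0.867 by limma). Its sign turned when 1 mouse was left out, to -0.13 without SCR replicate 6, -0.09 without SCR replicate 7 and -0.00064 without ANTI-210 replicate 4. Rpl3 ran from 12.62 over 13.09 to 14.23 in SCR muscles and from 12.66 over 13.49 to 14.19 in ANTI-210 muscles, a difference of 0.12 (SE 0.23, 95% interval -0.35 to 0.60, unadjusted p = 0.593 by limma). In both genes the ranges of the 2 groups overlapped.

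**Figure D2:**
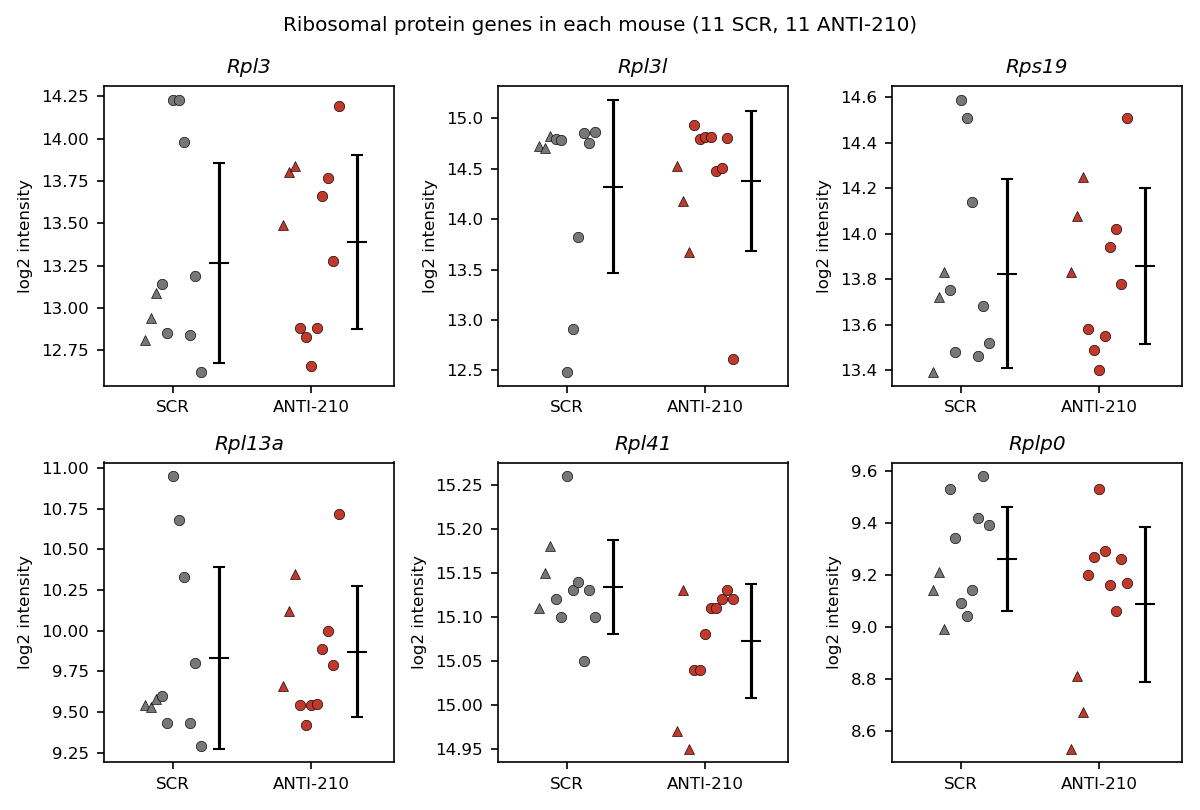
Log2 intensity of 6 ribosomal protein genes in each of 11 SCR (grey) and 11 ANTI-210 (red) mice, with the mean and SD of the group as a bar; triangles are replicate numbers 1 to 3 and each panel has its own vertical axis. The groups overlap in all 6 genes, and the mice that are lowest for Rpl3l, SCR replicates 6 and 7 and ANTI-210 replicate 11, are the highest 3 for Rpl3.

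The larger differences lay between mice of the same group. Rpl3l had the largest SD of the 64 members, 0.76 on the log2 scale over the 22 mice, followed by Rpl3 (0.54), Rps4l (0.51), Rpl13a (0.48), Rpl22l1 (0.46), Rps6 (0.45), Rpl19 (0.39), Rps19 (0.37), Rps23rg1 (0.36) and Rps16 (0.34). Among the first 5, 3 are paralogs. Rpl13a, which is also a common reference gene in quantitative PCR, ran from 9.29 over a median of 9.58 to 10.95 in SCR muscles and from 9.42 over a median of 9.79 to 10.72 in ANTI-210 muscles. Rps19, the small subunit gene mutated in Diamond-Blackfan anemia, ran from 13.39 over 13.72 to 14.59 in SCR muscles and from 13.40 over 13.83 to 14.51 in ANTI-210 muscles. In both genes SCR replicates 6, 7 and 8 and ANTI-210 replicates 3 and 11 were the 5 highest mice.

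To describe this shared movement, the log2 value of each of the 49 subunit genes above 6 was taken relative to its own mean and averaged per mouse. The mean deviation ran from -0.22 over a median of -0.08 to 0.39 in SCR muscles and from -0.17 over a median of -0.02 to 0.39 in ANTI-210 muscles. It was highest in ANTI-210 replicate 11 and SCR replicates 6 and 7, at 0.39, 0.39 and 0.30. Of the 64 members, 33 had a Pearson r above 0.8 with it over the 22 mice, and of all genes 12.9% did. All 33 belong to the 49 genes, and each gene of the 49 was left out of the mean it was compared with. The closest were Rps19 (r = 0.98), Rpl13a (0.98), Rpl19 (0.98), Rps16 (0.97) and Rpl36a (0.97). The points share 22 arrays and 1 normalization, so these r are a description.

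Not every subunit gene moved with the rest at its brightest probe. Among the 49, r was between 0.5 and 0.8 in 11 and below 0.5 in 5, which were Rpl21 (0.22), Rpl41 (0.30), Rps3a1 (0.37), Rps25 (-0.08) and Rplp0 (-0.44). Rplp0 ran from 8.99 over 9.21 to 9.58 in SCR muscles and from 8.53 over 9.17 to 9.53 in ANTI-210 muscles. ANTI-210 replicates 1 to 3 were its 3 lowest mice, and its second probe, at a mean of 5.09, had r = -0.48. Other r changed with the probe. Rpl23 had 0.54 at its brightest probe and 0.94 at one of mean 9.37. Rps24 had 0.57 and, at a probe of mean 7.03, 0.96. The other way, Rpl38 had 0.86 and, at a mean of 10.41, -0.24, and Rpl29 had 0.91 and, at 10.47, 0.26. The 18 subunit genes with a mean of at least 14 had a median r of 0.86, the other 31 one of 0.91. The part of brightness in these r was not tested. Of the paralogs Rps4l (0.79) and Rpl36al (0.68) moved with the subunit genes, Rpl22l1 (-0.30) and Rps27l (-0.34) did not, and Rpl3l had -0.94. Rpl39l had -0.05 at a mean of 4.50, under 6, where r cannot show whether it moved with them. Rpl3l was the one member below -0.8, where 10.3% of all genes lay. The 3 genes of similar name, the nucleolar factor Rpl7l1 (-0.41), Rps19bp1 (-0.22) and Rps23rg1 (-0.55), were all below 0.

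**Figure D3:**
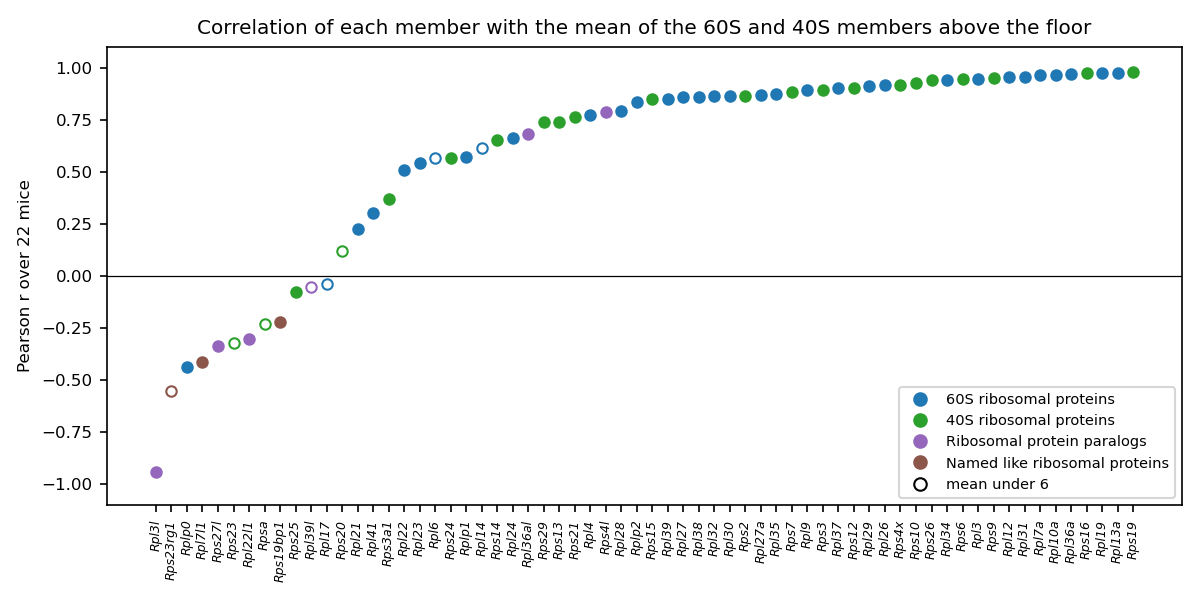
Pearson r over 22 mice (vertical axis) between each of the 64 members and the mean deviation of the 49 subunit genes above 6, ordered by r and coloured by class, open points for means under 6. Each gene of the 49 was left out of the mean it was compared with. 33 subunit genes lie above 0.8, and Rpl3l stands alone at -0.94.

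Rpl3 and Rpl3l moved against each other from mouse to mouse. Of the SCR mice, 8 had Rpl3l between 14.71 and 14.87 and Rpl3 between 12.62 and 13.19. SCR replicate 8 had 13.82 for Rpl3l and 13.98 for Rpl3, SCR replicate 7 had 12.91 and 14.23, and SCR replicate 6 had 12.48 and 14.23. Of the ANTI-210 mice, replicates 4 to 7 and 10 had Rpl3l between 14.80 and 14.93 and Rpl3 between 12.66 and 13.28. Replicates 1, 2, 3, 8 and 9 lay between, with Rpl3l from 13.67 to 14.53 and Rpl3 from 13.49 to 13.84, and replicate 11 had 12.61 and 14.19. The mice low in Rpl3l were those high in Rpl3, while levels of the 2 probes cannot be set against each other.

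Over the 22 mice Pearson's r between Rpl3l and Rpl3 was -0.87 and Spearman's rho -0.84 (permutation p = 2e-05 for each, two-sided, the smallest that 100000 resamples can give, adjusted p = 0.0001 over 5 pairs). Pearson's r was -0.93 within the SCR mice (permutation p = 8.8e-04) and -0.80 within the ANTI-210 mice (permutation p = 6e-05). It was -0.87 within replicate numbers 1 to 3 (n = 6, exact permutation p = 0.0194) and -0.88 within numbers 4 to 11 (permutation p = 2e-05). Without the 2 mice farthest from the median of Rpl3l, SCR replicate 6 and ANTI-210 replicate 11, it was -0.85. Below the widest gap in Rpl3l, from 12.91 to 13.67, lay 3 mice, and without them it was -0.84 over 19 mice. The 5 pairs were chosen after their values were seen, so the adjustment over 5 does not cover that choice. A strong r with the ribosomal protein mean was not rare, as 12.9% of all genes lay above 0.8 and 10.3% below -0.8. How many genes had an r this low with Rpl3l or Rpl3 was not counted.

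**Figure D4:**
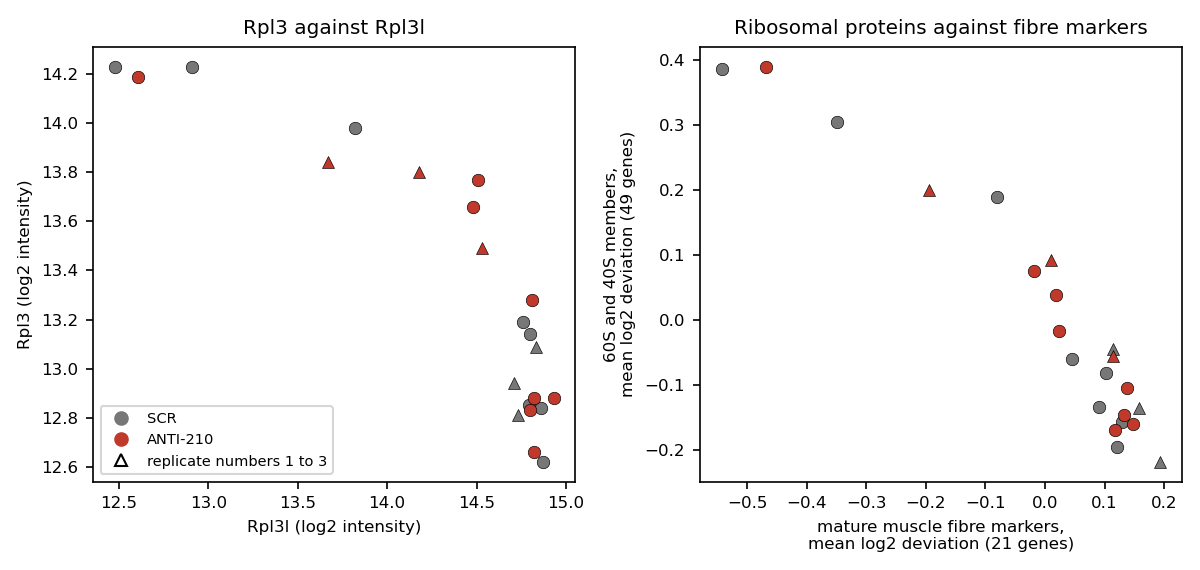
Left, log2 intensity of Rpl3 against Rpl3l in the 22 mice; right, mean log2 deviation of 49 ribosomal protein genes against that of 21 mature fibre markers in the same mice; SCR grey, ANTI-210 red, triangles for replicate numbers 1 to 3. Both panels fall from left to right (r = -0.87 and -0.95), with mice of both groups at both ends.

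The other pairs of a paralog and its counterpart behaved in different ways. Rps4l and Rps4x rose and fell together (r = 0.70, rho = 0.69, permutation p = 1.2e-04 and 5.2e-04, adjusted 3e-04 and 0.0013), with r = 0.67 without SCR replicate 9 and ANTI-210 replicate 5. Rpl36al and Rpl36a did so too (r = 0.62, rho = 0.53, permutation p = 0.00228 and 0.0114, adjusted 0.00285 and 0.0143), with r = 0.54 without SCR replicate 2 and ANTI-210 replicate 11. Rpl22l1 and Rpl22 had r = -0.44 (permutation p and adjusted p = 0.0386) and rho = -0.37 (permutation p = 0.0869). That relation rested on ANTI-210 replicates 5 and 6, without which r was -0.27 (permutation p = 0.26). Within numbers 1 to 3 r was -0.003 (n = 6, exact permutation p = 0.989), and within numbers 4 to 11 it was -0.65 (n = 16, permutation p = 0.0062). Outside the ribosome itself, the elongation factors Eef1a2, the form of mature muscle and neurons, and Eef1a1, the widespread form, had r = -0.62 and rho = -0.61 (permutation p = 2.2e-04 and 0.00262, adjusted 3.67e-04 and 0.00437). Without SCR replicate 6 and ANTI-210 replicate 11 r was -0.56, within the SCR mice it was -0.80 (permutation p = 3e-04) and within the ANTI-210 mice -0.40 (permutation p = 0.197). Within numbers 1 to 3 it was -0.57 (n = 6, exact permutation p = 0.206) and within 4 to 11 -0.65 (permutation p = 0.00164). Eef1a2 had r = 0.94 with Rpl3l, and Eef1a1 had r = -0.73.

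The genes most like Rpl3l over the 22 mice, by Pearson r among all 18524 genes, were Ckmt2, the sarcomeric mitochondrial creatine kinase (r = 0.99), Perm1, a muscle regulator of oxidative metabolism (0.99), Cox7a1, a muscle subunit of cytochrome c oxidase (0.99), Scn4b, a sodium channel subunit (0.99), Rab3a (0.99), Myoz3, a Z-disc protein (0.98), Cpt1b, which carries fatty acids into mitochondria (0.98), Coq10a (0.98), the insulin-regulated glucose transporter Slc2a4 (0.98) and Ndufs7 of complex I (0.98). Those most like Rpl3 were Epb41l3 (0.99), Igsf3 (0.99), B4galnt1 (0.99), Chrng, the embryonic subunit of the acetylcholine receptor (0.99), Tubb2b (0.99), the chromatin assembly factor subunit Chaf1b (0.99), Col16a1 (0.98), Col5a1 (0.98), Tlr6 (0.98) and Col18a1 (0.98).

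By their means, markers of regenerating fibres, macrophages and fibroblasts moved with the ribosomal protein genes, and those of mature fibres moved against them. The tissue carried its label, with Acta1 at 14.87 or more and Ckm at 14.53 or more in each mouse. The mean of 21 mature fibre markers had r = -0.95 with the ribosomal protein mean and 0.97 with Rpl3l, and ran from -0.54 to 0.19 in SCR and from -0.47 to 0.15 in ANTI-210 muscles; 9 of the 21 had r below -0.8. The mean of 15 satellite cell and regenerating fibre markers had r = 0.93 with the ribosomal protein mean and 0.99 with Rpl3. It ran from -1.13 to 1.08 in SCR and from -0.85 to 1.01 in ANTI-210 muscles, and 10 of the 15 had r above 0.8, among them Myog (0.94), Chrng (0.94) and Myod1 (0.90). Des had r = -0.23, the 1 below 0. The satellite cell markers Pax7 (0.05) and Myf5 (0.11) had means of 4.56 and 4.51, under 6. Of 17 macrophage and leukocyte markers 11 had r above 0.8 and 2 below 0. Their mean, from -1.03 to 0.94 in SCR and from -0.55 to 0.95 in ANTI-210 muscles, had r = 0.89. The mean of 9 fibroblast and progenitor markers, from -0.83 to 0.80 in SCR and from -0.44 to 0.69 in ANTI-210 muscles, had r = 0.87, with 4 of 9 above 0.8 and 2 below 0.

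The first principal component of all genes held 66.7% of the variance and had an absolute r of 0.97 with the ribosomal protein mean. The part of cell composition in the spread of the ribosomal protein genes was not tested. Between the treatments, of these 4 lists, 1 marker passed, the muscle enolase Eno3, which was higher by 0.08. Of 11 endothelial markers 6 passed the unadjusted threshold, all higher in ANTI-210 muscles, beside 3.24% of all genes in either direction. Their median difference was 0.50 within replicate numbers 1 to 3 and 0.09 within 4 to 11, and 5 of the 11 passed the unadjusted test of the difference between these sets, as 12.0% of all genes did. Their mean, from -0.32 to 0.14 in SCR and from -0.10 to 0.34 in ANTI-210 muscles, had r = -0.21 with the ribosomal protein mean. Adipocyte markers (7 genes, 1 lower, none higher) and nerve markers (5 genes, none past the threshold) had r = -0.26 and -0.28.

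The other genes of protein synthesis did not all follow the subunit genes. Of 74 mitochondrial ribosomal proteins, which serve the separate ribosome of that organelle, 38 had r below -0.8 with the cytosolic mean and none above 0.8, and their mean had r = -0.93. Between the treatments none of the 74 passed, with a median difference of -0.05 and 66 of 74 below 0, as were 9663 of all 18524 genes. The median was -0.31 within replicate numbers 1 to 3 and 0.06 within 4 to 11. The unadjusted test of the difference between these sets was passed by 25 of the 74, and by 12.0% of all genes. Of 39 ribosome biogenesis factors, 4 were lower with ANTI-210 and none higher. They were Polr1b (-0.30, unadjusted p = 0.0109 by limma) and Polr1a (-0.15, p = 0.0464 by limma), the 2 large subunits of RNA polymerase I, Tcof1 (-0.30, p = 0.0297 by limma), which assists that polymerase, and the processing factor Rrp1 (-0.19, p = 0.0207 by limma). The adjusted p of each was 0.999, and against the 3.24% of all genes these are 4 of 39. The mean of these 39 genes had r = 0.53 with the ribosomal protein mean.

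Of 24 initiation factors 2 were lower and none higher, beside 3.24% of all genes in either direction. They were Eif3c (-0.18, unadjusted p = 0.0476 by limma) and Eif2s3x (-0.15, p = 0.0497 by limma), each with adjusted p = 0.999. The mean of the 24 had r = -0.14. Of 8 elongation factors none passed, and their mean had r = 0.62. Of 17 genes of the mTORC1 pathway and S6 kinases none passed, and their mean had r = -0.94 with the ribosomal protein mean and 0.90 with Rpl3l. Single genes ranged widely, 4 of 17 below -0.8, among them the elongation factor kinase Eef2k (-0.94), and 1 above 0.8, the Rag GTPase Rragc (0.93). Mtor itself had r = -0.59 and a treatment difference of -0.06 (SE 0.07).

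The treatment difference was finally taken within sets of replicate numbers, because numbers 1 to 3 are known from earlier results of these data to stand apart from numbers 4 to 11, while the labels name no batch. Within numbers 4 to 11, 8 mice against 8, none of the 64 members passed the unadjusted threshold with limma, 2.38% of all genes did, and the median member difference was -0.02. Within numbers 1 to 3, 3 mice against 3, 27 members passed with limma, 23 higher and 4 lower, where 34.1% of all genes passed, and the median was 0.14. Rpl3 was higher by 0.76, Rps6 by 0.51 and Rpl13a by 0.49, and the 4 lower were Rpl3l (-0.63), Rpl22l1 (-0.52), Rplp0 (-0.44) and Rpl21 (-0.16). In these 6 mice Rpl3 was 12.81, 12.94 and 13.09 in SCR and 13.49, 13.80 and 13.84 in ANTI-210. Rpl3l was 14.73, 14.71 and 14.83 in SCR and 14.53, 14.18 and 13.67 in ANTI-210. In the same 3 against 3 mice the regenerating fibre markers had a median difference of 1.05 and the macrophage markers of 0.88, against -0.07 and 0.03 within numbers 4 to 11. It was 0.85 for the nerve markers, 0.53 for the fibroblast markers, 0.50 for the endothelial markers, 0.27 for the adipocyte markers and -0.08 for the mature fibre markers, against -0.02, -0.07, 0.09, 0.20 and 0.04 within numbers 4 to 11. Most mature fibre markers had means of at least 14. Their median SD over the 22 mice was 0.14, against 0.79 for the regenerating fibre markers, so the median differences are not on a like footing. The part of these cell types in the result was not tested. With 3 mice a side an exact permutation test of 1 gene cannot go below 0.1. The sets of replicate numbers were chosen from these same data, so p values within and between them do not account for that choice.

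The test of the difference between the 2 sets itself gave 4 of 64 members at the unadjusted threshold with limma, where 12.0% of all genes passed, and none of the members after adjustment. Neither Rpl3 (0.88, unadjusted p = 0.0934 by limma) nor Rpl3l (-0.94, unadjusted p = 0.209 by limma) was among the 4, which were Rpl23, Rpl37, Rpl38 and Rplp0.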

How the data were processed

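The deposited log2 values of 22 arrays, 1 per mouse, were used. Per the methods, the authors made bead summaries with GenomeStudio, applied quantile normalization and removed poor probes with beadarray (versions: not given in the sources used here). Their range of 4.35 to 15.4 was read as log2, since no base is stated. Quantile normalization gives each array the same set of values, so probes near the top can move only within the few highest ones. Groups and replicate numbers came from the sample labels, and 0 further columns of values were present. Whether the animals were processed together is not stated.

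Of 38563 probes, 32093 carry 1 gene symbol, 16 several and 6454 none. Each gene was represented by its probe of highest mean, and all 64 members matched the gene table by Entrez ID with the same symbol. Differences were fitted over all 18524 genes with limma 3.58.1 in R 4.3.3 (lmFit, eBayes, no covariate, two-sided), at the study's unadjusted p under 0.05 with Benjamini-Hochberg values beside it, and the script was tested on simulated data. Pair correlations used permutation tests with 100000 resamples in SciPy 1.17.1 (Python 3.11.15). The number of arrays limits the precision.

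The members and gene lists were chosen with earlier results of these data known, and the 5 pairs, the motifs, the fit over all probes, the fibre covariate and the gap in Rpl3l after their values were seen. Named are Rpl3l, Rpl3, members past the threshold, the 10 largest differences each way, the 10 largest SDs, the 5 highest and 5 lowest correlations, all paralogs and similarly named genes, the 10 genes most like Rpl3l and Rpl3, and up to 4 genes past the threshold per companion list, except that single endothelial and adipocyte genes are given as counts. Rps23rg1 met the naming rule but was missing from the list of similarly named genes. Alternatives were other normalizations, limma settings, a filter on dim probes, the mean of all probes, the replicate number as a block, sets of replicate numbers and leaving out each mouse.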

Additional observations from a re-analysis of the deposited data

Results flagged for a closer look

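In 4 members the treatment difference itself differed between replicate numbers 1 to 3 and 4 to 11, by limma's interaction term, each with adjusted p = 0.409. Rpl38 had a difference of 0.18 within numbers 1 to 3 and -0.10 within 4 to 11, a gap of 0.28 (unadjusted p = 0.0179 by limma). Rpl23 had 0.14 and -0.03, a gap of 0.17 (unadjusted p = 0.0227 by limma). Rplp0 had -0.44 and -0.07, a gap of -0.37 (unadjusted p = 0.0271 by limma). Rpl37 had 0.31 and -0.0063, a gap of 0.32 (unadjusted p = 0.0325 by limma). The 3 large subunit genes with a positive gap have means above 14, and of all genes 12.0% passed the same test. What sets the replicate numbers apart was not tested.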

How the results depend on the processing

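The count of members past the unadjusted threshold, 1 as reported, was 0 with cyclic loess, with eBayes trend and robust, with the filter on dim probes (58 members left), with the replicate block and within numbers 4 to 11. It was 10 with array weights (9 higher, 1 lower, with 2580 of all genes past it), 27 within numbers 1 to 3 and 7 with the fibre marker mean as a covariate (6 higher, 1 lower, with 1372 of all genes past it), and leaving out 1 mouse gave 0 to 2. The Rpl3l difference turned to -0.17 with array weights and -0.63 within numbers 1 to 3, and lay between -0.13 and 0.23 with 1 mouse left out. The Rpl3 difference was -0.12 within numbers 4 to 11 and 0.76 within 1 to 3, where it passed, and lay between 0.04 and 0.22 with 1 mouse left out. The median difference lay between -0.02 and 0.04 with 1 mouse left out. The count of members differing between the sets of replicate numbers, 4 as reported, was 2 with eBayes trend and robust and 2 with the mean of all probes. Leaving out 1 mouse gave 1 to 17, the lowest without SCR replicate 1, with 2 without SCR replicate 2, 8 without SCR replicate 3 and 17 without ANTI-210 replicate 11. Single genes changed sign as follows. With array weights Rps4l had 0.062, Rpl32 0.011 and Rpl28 0.012. Within numbers 4 to 11 Rpl22l1 had 0.066, Rps16 -0.0225 and Rps3 -0.02. Within numbers 1 to 3 Rps4l had 0.067, Rps15 0.11, Rpl32 0.16, Rplp1 0.017 and Rpl28 0.14, and with 1 mouse left out Rpl32 lay between -0.086 and 0.0027, above 0 without SCR replicate 6. The cause was not tested. The correlation of Rpl3l and Rpl3 kept its sign and call in each alternative run, -0.89 to -0.85 with 1 mouse left out and -0.96 with the replicate block. The replicate numbers do not pair the mice: the correlation of same-numbered mice ran from -0.69 to 0.68, above 0.1 in 4 of 11 pairs, and 1 of 11 SCR mice was most like its own number. The block left the median difference at 0.01 and the Rpl3l and Rpl3 calls as they were, and gave 4 members differing between the sets, of which Rpl23 and Rpl38 are among the reported 4, while Rplp0 and Rpl37 did not pass and Rpl22l1 and Rps23rg1 did.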
